A study of Mus musculus with 22 samples.

Results

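The comparison described here asks whether haematopoietic stem cells (HSCs) of Cd53 knockout (KO) mice answered granulocyte colony-stimulating factor (G-CSF) differently from HSCs of wild-type (WT) littermates. The measure is the interaction of genotype with treatment in bone marrow (BM). It is the G-CSF minus saline difference in KO marrow, less the same difference in WT marrow, in log2 CPM (reads scaled to a common library total) from RNA sequencing. A positive interaction means that the KO response lay above the WT response, and a negative one that it lay below. The libraries entering it were chosen by their labels alone. They number 14 of the 22 in the series, with 4 KO libraries after G-CSF, 3 KO libraries after saline, 3 WT libraries after G-CSF and 4 WT libraries after saline. The mice received G-CSF for 7 days or saline. HSCs were sorted as Kit+ Sca-1+ lineage-negative cells that lacked CD48 and carried CD150. The other 8 libraries, from spleens after G-CSF, entered only the estimate of the spread and a side comparison of KO with WT. Spleens after saline were not analysed here, so the interaction is given for marrow alone. The labels do not say whether libraries of a group came from separate mice, or whether mice were pooled, so p-values measure the spread between these libraries, which may be technical. In sorted populations, fewer cells of a type and less RNA per cell cannot be told apart.

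G-CSF raises the output of neutrophils and mobilises HSCs from marrow into blood, and it signals through its receptor to STAT3 and STAT5. Cd53 encodes a tetraspanin, a membrane scaffold protein of leukocytes. The DREAM complex joins a pocket protein, E2F and DP factors and the MuvB core on cell cycle promoters, where it holds G1/S and G2/M genes silent in quiescent cells. The MuvB core later leaves DREAM for B-Myb and FoxM1 and helps to turn on the same G2/M genes, often at a promoter sequence known as the cell cycle genes homology region (CHR).

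The libraries held 22578088 to 31268856 reads in the listed genes, and 13571 genes passed the filter on low values (more than 1 CPM in 3 or more libraries). The gate and stem cell genes were present. Kit lay at 9.66 to 10.69 log2 CPM and Slamf1, which encodes CD150, at 4.89 to 6.23 over the 14 libraries. The HSC transcription factor gene Hlf averaged 9.06 log2 CPM in KO G-CSF, 9.15 in KO saline, 9.15 in WT G-CSF and 9.30 in WT saline marrow. Of 18 erythroid markers 8 were listed. Car2, which HSCs also express, had a mean of 4612.5, 5501.8, 4145.4 and 5278.0 CPM in KO G-CSF, KO saline, WT G-CSF and WT saline marrow. In that order Klf1 lay at 1.7, 1.1, 1.4 and 0.8 CPM and Gata1 at 44.2, 28.1, 47.8 and 15.2 CPM. Hbb-bt lay at 73.4 CPM in WT G-CSF and 25.9 in WT saline marrow. The means of Gata1, Klf1, Epor, Hbb-bt and Tfrc were higher after G-CSF in both genotypes. Those of Car2 and Hbb-bs were lower in both, and that of Rhag was lower in KO and higher in WT. Of 15 neutrophil markers 9 were listed, and their summed level was 9.6 to 34.2 CPM in KO G-CSF, 4.2 to 6.4 in KO saline, 9.0 to 30.2 in WT G-CSF and 4.4 to 115.6 in WT saline libraries. The highest of these was WT saline replicate 3, whose mean over the neutrophil list was 0.79 log2 CPM against -2.05, -1.87 and -1.99 in the other WT saline libraries. Of 12 B cell markers 2 were listed, and of 18 T and NK cell markers 6. The B cell sum was 101.2 to 148.3 CPM in KO G-CSF, 126.5 to 143.8 in KO saline, 101.3 to 129.5 in WT G-CSF and 107.9 to 131.0 in WT saline libraries. For T and NK cells it was 203.6 to 279.5, 141.0 to 152.0, 210.3 to 232.7 and 121.9 to 154.9 in that order.

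Cd53 itself, on chromosome 3 (106759921 to 106790149, minus strand, build GRCm38), was lower in KO marrow under either treatment, and it rose with G-CSF in both genotypes. It lay at 6.28, 6.59, 6.06 and 6.36 log2 CPM in KO G-CSF libraries, 3.61, 3.58 and 2.02 in KO saline, 9.57, 9.83 and 9.80 in WT G-CSF and 5.90, 5.84, 6.18 and 5.75 in WT saline libraries. KO libraries lay below WT libraries of the same treatment without overlap, but Cd53 in KO marrow after G-CSF overlapped its level in WT marrow after saline. The G-CSF response was 3.25 ± 0.24 log2 units in KO (SE, limma adjusted p = 2.13e-09) and 3.82 ± 0.24 in WT (adjusted p = 1.07e-10). The interaction was -0.56 ± 0.33 (adjusted p = 0.772), with a 95% confidence interval of -1.26 to 0.13. Without KO saline replicate 3, the KO library of lowest Cd53, it was -1.09 (adjusted p = 0.0322), and without KO saline replicate 1 or 2 it was -0.30 or -0.31. Whether these reads come from the deleted region of the gene is not stated in the sources used here.

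Both genotypes shared much of a large response to G-CSF in marrow. In KO marrow 757 genes rose (5.58% of those tested) and 585 fell (4.31%), and in WT marrow 764 rose (5.63%) and 764 fell (5.63%), by limma at a Benjamini-Hochberg adjusted p under 0.05. The rising genes of both genotypes had 417 in common, which is 55.1% of the KO list and 54.6% of the WT list. The falling genes had 280 in common, 47.9% of the KO list and 36.6% of the WT list. No gene rose in one genotype and fell in the other (0 genes). Of the 757 that rose in KO, 706 had a WT estimate above 0, and of the 764 that rose in WT, 744 had a KO estimate above 0. With reads scaled to the plain total of the listed genes the split was 589 higher and 799 lower in KO, and 556 higher and 1047 lower in WT.

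Across genes the KO and WT responses, which share no library, had a Pearson r of 0.619, and a least-squares slope of 0.605 for KO on WT and of 0.632 for WT on KO. Genes are not independent replicates, and the r was 0.708 over the 9395 genes with a marrow mean of at least 3 log2 CPM. Averaged over the genotypes, 1406 genes rose and 1421 fell. The risers had a median KO response of 0.48 and a median WT response of 0.45, and the fallers of -0.59 and -0.62. Their median interactions were -0.02 and 0.02.

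**Figure D1:**
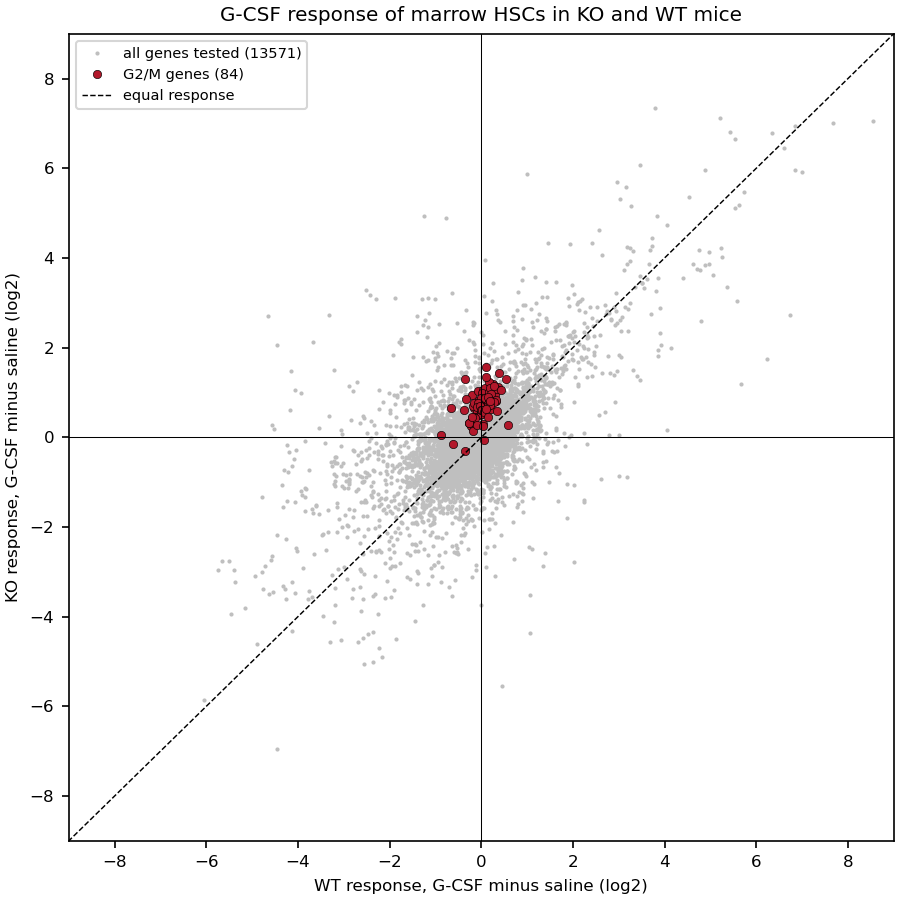
Log2 response to G-CSF of each tested gene in KO marrow HSCs (vertical axis) and WT marrow HSCs (horizontal axis). Genes scatter about the line of equal response, while the 84 G2/M genes, in red, sit mostly above 0 in KO (median 0.76) and about 0 in WT (median 0.06).

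The genes with the largest shared changes show how strong that response was. Wfdc17, which encodes a small secreted protein of myeloid cells, lay at 7.79, 7.80, 7.46 and 7.47 log2 CPM in KO G-CSF and 2.63, 2.57 and 2.14 in KO saline libraries, against 7.40, 8.07 and 7.44 in WT G-CSF and 2.66, 1.46, 2.20 and 1.71 in WT saline libraries. G-CSF libraries stood far above saline libraries in each genotype, and the responses were 5.18 ± 0.24 in KO and 5.63 ± 0.24 in WT (adjusted p = 6.35e-13 and 1.07e-13). Tmem215, a membrane protein gene, rose by 6.79 ± 0.42 in KO and 6.34 ± 0.42 in WT. Dntt, the terminal transferase of early lymphoid cells, rose by 6.81 ± 0.58 in KO and 5.42 ± 0.58 in WT. Rcvrn and Sema3d also rose in both. The sizes for Tmem215, Dntt, Rcvrn and Sema3d rest on few reads after saline. Tmem215 had 14, 7 and 22 reads in KO saline and 39, 7, 28 and 16 in WT saline libraries. Dntt had 9, 6 and 3 reads in KO saline and 19, 7, 23 and 2 in WT saline libraries. Rcvrn had 0 to 2 and Sema3d 0 to 10 in any saline library. Among fallers, Runx1t1, a transcriptional corepressor, lay at 2.53, 2.23, 2.76 and 2.37 in KO G-CSF and 5.44, 5.58 and 5.61 in KO saline libraries, against 3.19, 1.48 and 2.84 in WT G-CSF and 5.69, 5.70, 5.28 and 6.42 in WT saline libraries. Its responses were -3.07 ± 0.35 and -3.27 ± 0.35. The kinase gene Plk2 fell by 3.56 ± 0.41 in KO and by 3.69 ± 0.41 in WT, and Cyp26b1 and Inhba fell in both. After G-CSF these last genes had few reads, with 12, 49, 27 and 4 for Cyp26b1 and 35, 1, 34 and 41 for Inhba in KO libraries. The interactions of these 9 genes ran from -1.90 (Inhba) to 1.38 (Dntt), with adjusted p between 0.739 and 0.974.

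The interaction itself passed the threshold for 0 of 13571 genes, 0 higher (0%) and 0 lower (0%), with a smallest adjusted p of 0.243 by limma. At an unadjusted p under 0.05 there were 970 genes (7.15%), 632 positive (4.66%) and 338 negative (2.49%). Of the 37 genes under an unadjusted p of 0.001, 33 were positive. The data bound the interaction within 1 log2 unit for most genes. Its standard error had a median of 0.27, and the 95% confidence interval lay within 1 log2 unit of 0 for 8263 genes (60.9%), and for 7874 (83.8%) of the 9395 genes with a marrow mean of at least 3. Of the 2827 genes that rose or fell averaged over the genotypes, 1828 met that bound. The median absolute average response of the 2827 was 0.54, so the bound is wider than a typical response. Directions given from here on for the interaction are therefore values, and no gene is called changed by it. Leaving out 1 library gave 7 genes without KO saline replicate 2, 3 without KO saline replicate 3, and 1 each without WT saline replicate 2 and WT G-CSF replicate 2.

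The estimates of the G2/M genes known as DREAM targets were nearly all positive. All 84 were tested and 0 passed the threshold in the interaction, but 82 of 84 had a positive estimate, against 6673 of 13571 genes in all. Their median interaction was 0.69 with quartiles of 0.54 and 0.87, against a median of -0.01 and quartiles of -0.21 and 0.24 over all genes. At an unadjusted p under 0.05 there were 53 positive members (63.1%, against 4.66% of all genes) and 0 negative. The list was written with earlier results of these data known, and it holds genes named in them. Of the 84, 51 rose with G-CSF in KO marrow (60.7%, against 5.58% of all genes) and 0 fell. In WT marrow 1, Bub1, rose (1.19%, against 5.63%) and 1, Kif23, fell (1.19%, against 5.63%). Those counts alone do not show that the genotypes differ, since no member passed in the interaction. Without KO saline replicate 1 the median was 0.54, 34 members had an unadjusted p under 0.05 and 30 rose in KO.

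By library, the mean of the 84 genes was 5.65, 5.73, 6.0 and 5.89 log2 CPM in KO G-CSF, 4.75, 5.20 and 5.29 in KO saline, 5.51, 5.26 and 5.08 in WT G-CSF and 5.35, 5.16, 5.19 and 5.29 in WT saline libraries. All 4 KO G-CSF libraries lay above each of the 10 other marrow libraries. The other 3 groups overlapped, with KO saline replicate 1 lowest. The KO minus WT median of the list was 0.58 after G-CSF and -0.15 after saline.

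**Figure D2:**
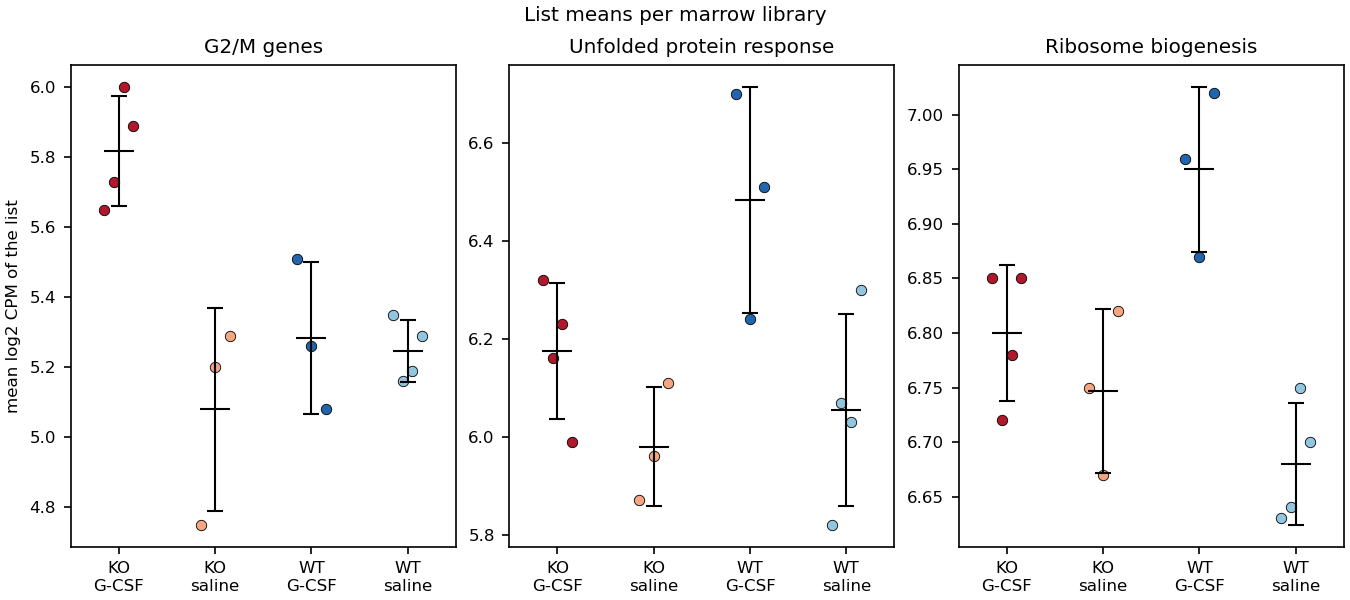
Mean log2 CPM of the members of 3 gene lists in each marrow library (points), with the group mean and SD. For the G2/M genes the 4 KO G-CSF libraries, at 5.65 to 6.0, lie above all others. For the unfolded protein response and ribosome biogenesis the highest library is a WT G-CSF library.

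A CHR stretch in the promoter was common among these genes. They were listed as known DREAM targets, which often carry it, so its share describes the list and not the response to G-CSF. In RefSeq promoter windows on GRCm38.p6, from 250 bases before to 50 after the gene start, TTTGAA or its reverse complement TTCAAA was found in 48 of 69 matched G2/M genes (69.6%), against 1195 of 9970 windows of tested genes (12%). CCAAT or ATTGG, the letters bound by NF-Y, was found in 69.6% against 38.9%, and both in 53.6% against 5.01%. The share with TTTGAA was 3.12% for the unfolded protein response and 4.65% for ribosome biogenesis. The windows of 4 genes are printed because each gene's interaction lay above the list's median and both sequences fall close to the start. Each covers 100 bases before to 20 after the start, reads 5′ to 3′ on the strand of the gene, and has both sequences in capitals.
Prr11 (chr11:87108695-87108814, minus strand): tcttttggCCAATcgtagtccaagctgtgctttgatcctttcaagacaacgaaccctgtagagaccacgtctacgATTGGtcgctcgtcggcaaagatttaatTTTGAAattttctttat
Prc1 (chr7:80294351-80294470, plus strand): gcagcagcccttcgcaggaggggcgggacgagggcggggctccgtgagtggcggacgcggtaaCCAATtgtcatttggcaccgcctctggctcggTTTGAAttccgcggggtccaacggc
Aspm (chr1:139454673-139454792, plus strand): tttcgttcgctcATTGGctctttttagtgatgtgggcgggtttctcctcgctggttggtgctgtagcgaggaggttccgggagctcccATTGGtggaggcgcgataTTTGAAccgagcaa
Kif11 (chr19:37376282-37376401, plus strand): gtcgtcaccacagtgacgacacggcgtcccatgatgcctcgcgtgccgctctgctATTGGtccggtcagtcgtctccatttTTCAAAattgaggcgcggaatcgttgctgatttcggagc
The same letters were then looked at inside and outside the list, as a description with no test. Among G2/M members the median interaction was 0.74 for the 48 with TTTGAA and 0.63 for the 21 without. Among other genes it was -0.01 for the 1147 with the letters and -0.02 for the 8754 without, 5.41% with and 3.71% without had an unadjusted p under 0.05 with a positive sign, and 2.62% and 2.6% with a negative sign. A match is a description of the sequence and not a binding site.

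The members are described by their part in mitosis, starting with cytokinesis. Cit encodes citron kinase, which acts at the midbody of dividing cells, and had the smallest p of all genes. It lay at 7.61, 7.59, 7.14 and 7.18 log2 CPM in KO G-CSF, 6.17, 6.80 and 6.32 in KO saline, 6.64, 6.60 and 6.26 in WT G-CSF and 6.90, 6.66, 6.70 and 6.56 in WT saline libraries. The KO G-CSF libraries were above all others. The interaction was 1.15 ± 0.21 (limma adjusted p = 0.243, 95% interval 0.71 to 1.59), made of a KO response of 0.95 ± 0.15 and a WT response of -0.21 ± 0.15. Without KO saline replicate 2 it was 1.34 (adjusted p = 0.0215). Prc1, whose protein bundles the midzone microtubules, had an interaction of 0.82 ± 0.21, and the abscission gene Cep55 one of 1.07 ± 0.32. Both rose in KO, by 1.01 ± 0.15 and 1.24 ± 0.23 (adjusted p = 7.34e-05 and 0.000775). The exchange factor gene Ect2 had 0.97 ± 0.28 and the scaffold gene Anln 0.84 ± 0.32. Racgap1, which acts with Ect2, had only 0.24 ± 0.34.

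The kinesins were spread widely. Kif14, a kinesin that recruits citron kinase, lay at 4.12, 4.23, 4.16 and 4.32 in KO G-CSF, 2.40, 3.32 and 3.03 in KO saline, 3.37, 3.16 and 3.0 in WT G-CSF and 3.99, 3.68, 3.09 and 3.37 in WT saline libraries. Again the KO G-CSF libraries were highest, and KO saline replicate 1 was lowest. Its interaction of 1.65 ± 0.32 was the largest of the list (adjusted p = 0.243), and without KO saline replicate 2 it was 1.85 (adjusted p = 0.035). The spindle motor genes Kif11 and Kif15 had 0.87 ± 0.24 and 0.90 ± 0.33, and the midzone motor genes Kif20a and Kif4 0.93 ± 0.24 and 0.87 ± 0.39. These 4 rose in KO. Kif23, a subunit of centralspindlin, had 0.94 ± 0.29 by another route. It had a KO response of 0.05 ± 0.21 and fell in WT by 0.88 ± 0.21 (adjusted p = 0.00705). Kif18a had 0.31 ± 0.26 and Kifc1 0.61 ± 0.85.

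Kinetochore and checkpoint genes were mostly positive as well. Cenpe, a kinetochore motor, lay at 6.49, 6.44, 6.43 and 6.59 in KO G-CSF, 5.06, 5.67 and 5.55 in KO saline, 5.78, 5.50 and 5.08 in WT G-CSF and 5.64, 5.27, 5.28 and 5.45 in WT saline libraries. Here too the KO G-CSF libraries stood apart from the rest, and the interaction was 1.01 ± 0.28 (adjusted p = 0.337). The outer kinetochore genes Ndc80 and Knl1 had 0.91 ± 0.32 and 0.91 ± 0.35. The checkpoint kinase genes Bub1, Bub1b and Ttk had 0.75 ± 0.25, 0.72 ± 0.23 and 0.77 ± 0.34, and Bub1 was the 1 member that rose in both genotypes, by 1.30 ± 0.18 in KO and 0.55 ± 0.18 in WT. Mad2l1, the gene of the checkpoint protein Mad2, had 0.22 ± 0.19.

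Of the mitotic cyclin and kinase genes, Ccnb1 and Ccnb2 had 0.70 ± 0.25 and 0.77 ± 0.30, and both rose in KO (adjusted p = 0.000678 and 0.000985). Cdk1, their partner, had 0.34 ± 0.24 and passed in neither genotype. The phosphatase gene Cdc25c had 1.02 ± 0.30, and Plk1 and Aurka had 0.62 ± 0.40 and 0.59 ± 0.27. Foxm1, which encodes the factor that takes part in turning G2/M genes on, had 0.47 ± 0.34, with a KO response of -0.16 ± 0.24 and a WT response of -0.63 ± 0.24. The members below 0 were Plk4, of centriole duplication, at -0.31 ± 0.39, and Lmnb1, of the nuclear lamina, at -0.13 ± 0.47.

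Chromosome structure genes were positive too. Cdca2, which directs a phosphatase to chromosomes at mitotic exit, lay at 6.99, 6.94, 6.96 and 6.82 in KO G-CSF, 6.25, 6.43 and 6.12 in KO saline, 6.43, 6.24 and 5.96 in WT G-CSF and 6.43, 6.31, 6.25 and 6.46 in WT saline libraries. Its interaction was 0.81 ± 0.19 (adjusted p = 0.269). The condensin genes Smc2, Smc4, Ncapd2, Ncapg and Ncaph had 0.65 ± 0.17, 0.48 ± 0.13, 0.66 ± 0.20, 0.88 ± 0.28 and 0.63 ± 0.22. Top2a, the topoisomerase of mitotic chromosomes, had 0.68 ± 0.22, and the proliferation marker Mki67 0.63 ± 0.28. Aspm, a spindle pole gene, had 1.19 ± 0.31. Prr11, a cell cycle gene, lay at 4.88, 4.96, 5.03 and 4.95 in KO G-CSF, 3.55, 4.08 and 4.16 in KO saline, 4.16, 3.61 and 4.02 in WT G-CSF and 4.13, 3.92, 3.89 and 4.10 in WT saline libraries. The lowest KO G-CSF library of Prr11 lay above the highest of the others, and the interaction was 1.11 ± 0.27 (adjusted p = 0.284).

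**Figure D3:**
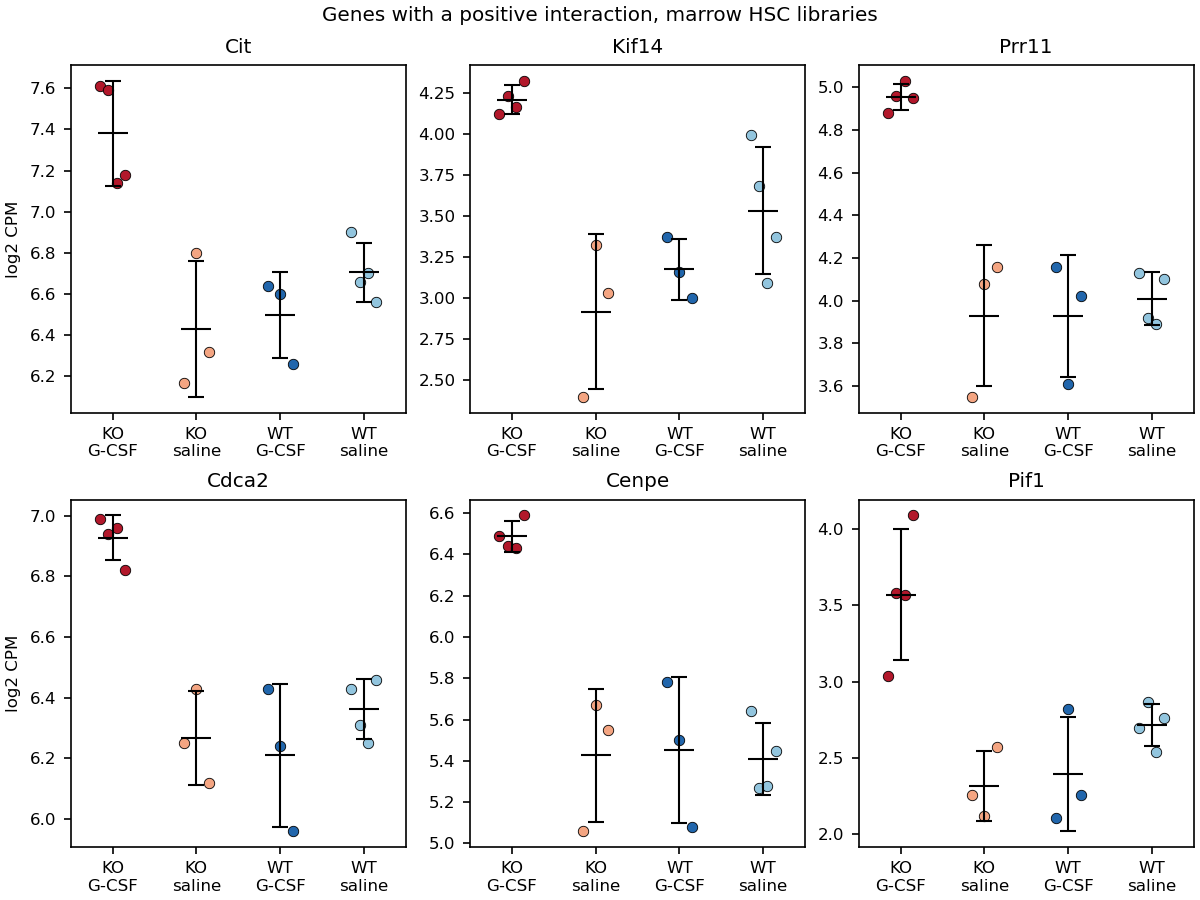
Log2 CPM of 6 genes with a positive interaction in each marrow library (points), with the group mean and SD. In all 6 panels the 4 KO G-CSF libraries lie above the 10 others.

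The KO against WT difference after G-CSF, which shares libraries with the interaction, passed for 17 genes that were higher (0.125%) and 3 that were lower (0.0221%) of 13571. Of the 84 G2/M members 4 were higher (Cit, Cdca2, Prr11 and Cenpe) and 0 lower, and 48 had all KO G-CSF libraries above all WT G-CSF libraries, against 596 genes in all (4.39%). The spleen libraries are not used by the interaction. There the KO minus WT median of the list was 0.57 and 83 of 84 members were positive (98.8%, against 49.8% of all genes), with 0 past the threshold. By library the list mean was 5.46, 5.31, 5.62 and 5.27 log2 CPM in KO spleen and 4.58, 4.58, 5.21 and 5.10 in WT spleen. WT replicates 1 and 2 were thus well below WT replicates 3 and 4, which lay just under the lowest KO library. In the same comparison 56 of 65 G1/S and replication genes and 28 of 37 homologous recombination and Fanconi genes were positive, with medians of 0.27 and 0.25. The G1/S mean was 5.98, 6.02, 6.2 and 5.97 in KO spleen and 5.51, 5.58, 6.01 and 5.95 in WT spleen libraries, so the genotypes overlapped. Lists with a negative median interaction in marrow, described below, had no common direction in spleen. The spleen value is KO minus WT after G-CSF, which is not the interaction. In marrow that difference had medians of -0.28 for the unfolded protein response, -0.12 for ribosome biogenesis and -0.14 for cholesterol synthesis and uptake. For oxidative phosphorylation it was -0.01 and for the proteasome 0.01. Positive in spleen were 18 of 39 unfolded protein response genes (median -0.02), 16 of 48 of ribosome biogenesis (-0.09) and 17 of 26 of cholesterol synthesis and uptake (0.08). For oxidative phosphorylation it was 10 of 76 (-0.21) and for the proteasome 7 of 31 (-0.14). In spleen no interaction can be had, since the difference after saline was not analysed here.

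Other cell cycle lists had smaller estimates. The 65 G1/S and replication genes had a median interaction of 0.15, with 54 positive, 10 positive at an unadjusted p under 0.05 (15.4%, against 4.66% of all genes) and 0 negative. None rose in KO or WT (0 and 0, against 5.58% and 5.63% of all genes). In WT 3 fell (4.62%, against 5.63%). Without KO saline replicate 1 the median was 0.04. Tyms, of thymidylate synthesis, had 0.57 ± 0.20, the DNA polymerase gene Pola1 0.72 ± 0.29 and the primase gene Prim1 0.34 ± 0.14 (adjusted p = 0.549 to 0.644). The 37 homologous recombination and Fanconi genes had a median of 0.33, with 31 positive. At an unadjusted p under 0.05 there were 9 positive (24.3%, against 4.66% of all genes). In KO 5 rose (13.5%, against 5.58% of all genes), and in WT 0 rose (against 5.63%). Pif1, a helicase gene on that list, lay at 3.04, 3.58, 3.57 and 4.09 in KO G-CSF, 2.26, 2.12 and 2.57 in KO saline, 2.11, 2.82 and 2.26 in WT G-CSF and 2.70, 2.87, 2.54 and 2.76 in WT saline libraries. All KO G-CSF libraries were above the others, and the interaction was 1.57 ± 0.34 (adjusted p = 0.259).

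The subunits of DREAM and MuvB themselves had a median of 0.09 over 13 genes, with 8 positive. At an unadjusted p under 0.05 there was 1 positive (7.69%, against 4.66% of all genes). The median of the subunits was -0.03 without KO saline replicate 2. The MuvB gene Lin9 had 0.53 ± 0.26 and the DP gene Tfdp2 0.35 ± 0.19. Rbbp4, a histone-binding MuvB subunit, lay at 7.67, 7.60, 8.88 and 8.88 in KO G-CSF libraries, 8.58, 8.56 and 8.82 in KO saline, 8.81, 8.62 and 8.94 in WT G-CSF and 8.80, 8.70, 8.52 and 8.52 in WT saline libraries. KO G-CSF replicates 1 and 2 stood more than 1 log2 unit below replicates 3 and 4, which lay among the rest, and the interaction was -0.56 ± 0.32 (adjusted p = 0.759), or -0.36 and -0.34 without KO G-CSF replicate 1 or 2. The 10 CDK inhibitor and D cyclin genes had a median of 0.06, and -0.05 without KO G-CSF replicate 2. Cdkn1c, the inhibitor p57 that marks quiescent HSCs, lay at 4.14, 5.08, 3.94 and 3.84 in KO G-CSF, 5.08, 5.17 and 5.18 in KO saline, 3.35, 3.52 and 3.03 in WT G-CSF and 5.06, 4.65, 4.80 and 5.18 in WT saline libraries. It fell in both genotypes, by 0.89 ± 0.22 in KO and by 1.62 ± 0.22 in WT (adjusted p = 0.00966 and 1.99e-05), and the interaction was 0.73 ± 0.31 (adjusted p = 0.657), or 0.45 without KO G-CSF replicate 2. The cyclin D1 gene Ccnd1 fell by 1.35 ± 0.25 in KO, and its WT response was -0.61 ± 0.25 (adjusted p = 0.12).

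**Figure D4:**
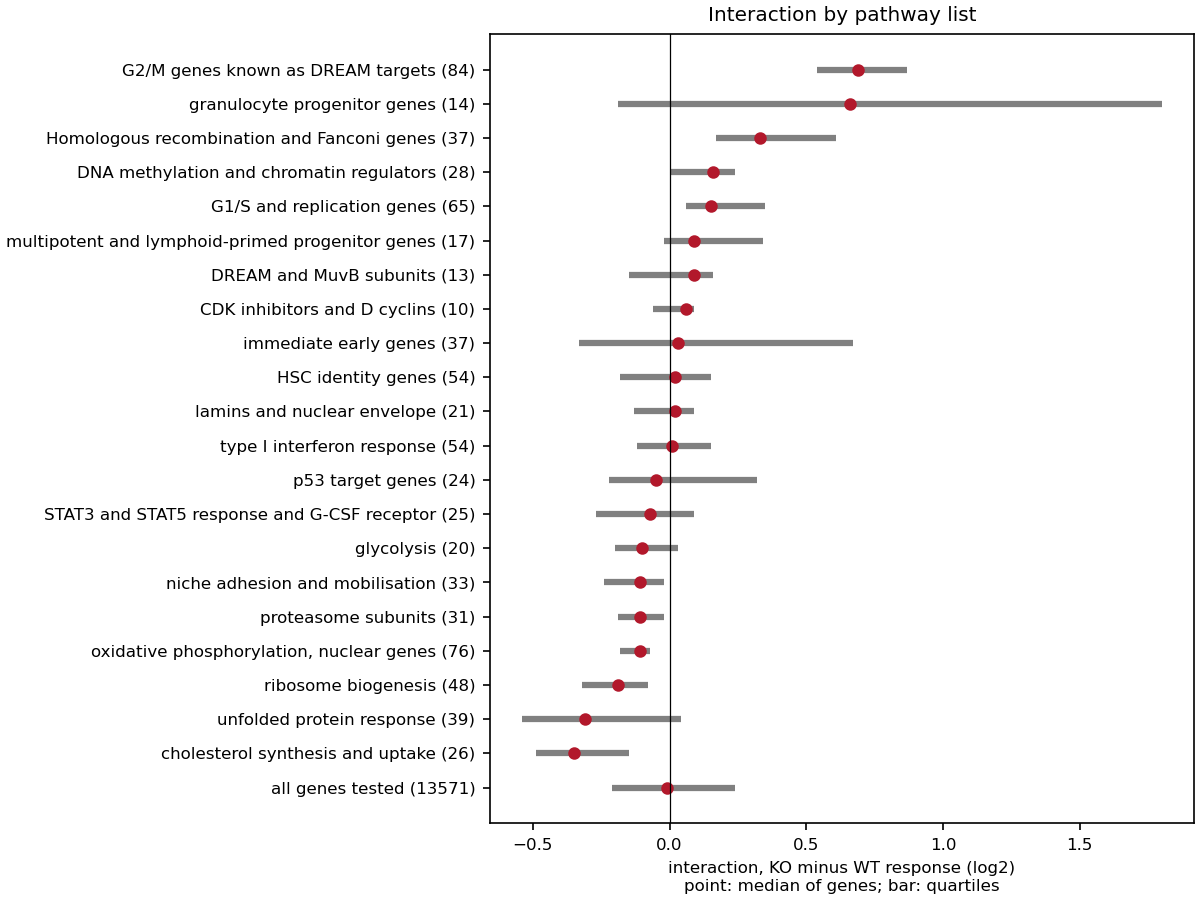
Median (point) and quartiles (bar) of the interaction over the genes of each pathway list, with the number of genes tested, and over all 13571 genes at the bottom. Among the pathway lists the G2/M genes have the highest median, 0.69, and cholesterol synthesis and uptake the lowest, -0.35. Marker lists of other cell types are not drawn.

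Secretory and growth genes had negative estimates. The unfolded protein response is the set of chaperones and sensors that cells raise when the endoplasmic reticulum is loaded. Of its 39 genes 28 had a negative interaction, the median was -0.31, and 6 (15.4%, against 2.49% of all genes) were negative at an unadjusted p under 0.05, with 0 positive. In KO marrow 4 rose (10.3%, against 5.58% of all genes) and 0 fell. In WT marrow 13 rose (33.3%, against 5.63%) and 1 fell (2.56%, against 5.63%), and 3 rose in both (Xbp1, Sec61a1 and Hspa13). The KO count was 1 without KO saline replicate 1 or 2 or KO G-CSF replicate 4, and 2 without KO saline replicate 3 or KO G-CSF replicate 1. The list mean was 6.32, 6.16, 6.23 and 5.99 in KO G-CSF, 5.87, 5.96 and 6.11 in KO saline, 6.70, 6.24 and 6.51 in WT G-CSF and 5.82, 6.07, 6.03 and 6.30 in WT saline libraries, so that WT saline replicate 4 overlapped the G-CSF libraries of both genotypes.

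Dnajb9, a chaperone of the endoplasmic reticulum, had the smallest p of that list. It lay at 4.34, 4.0, 4.84 and 4.25 in KO G-CSF, 4.17, 4.62 and 4.66 in KO saline, 5.67, 4.87 and 5.42 in WT G-CSF and 4.24, 4.43, 4.43 and 4.75 in WT saline libraries. The WT G-CSF libraries were the highest, and the other groups overlapped. It rose in WT by 0.86 ± 0.19 (adjusted p = 0.00535), its KO response was -0.13 ± 0.19, and the interaction was -0.99 ± 0.28 (adjusted p = 0.37). The disulfide isomerase gene Pdia4 rose in WT by 0.65 ± 0.11, with 0.21 ± 0.11 in KO (adjusted p = 0.246). Spcs2, of the signal peptidase, rose in WT by 0.57 ± 0.11, with 0.12 ± 0.11 in KO. The chaperone gene Hspa5 rose in WT by 1.02 ± 0.18, with 0.47 ± 0.18 in KO (adjusted p = 0.112).

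Ribosome biogenesis genes followed the same direction with small sizes. Of 48 genes 44 were negative, the median was -0.19 (-0.23 to -0.14 with any 1 library left out), and 4 were negative at an unadjusted p under 0.05 (8.33%, against 2.49% of all genes). In KO marrow 0 rose (5.58% of all genes did) and 1 fell (2.08%, against 4.31%), and in WT marrow 14 rose (29.2%, against 5.63%) and 0 fell. Pes1, of the PeBoW complex that matures the large subunit, lay at 7.32, 7.07, 6.61 and 7.12 in KO G-CSF, 7.71, 7.60 and 7.03 in KO saline, 7.65, 7.72 and 7.19 in WT G-CSF and 6.91, 6.81, 6.77 and 6.84 in WT saline libraries. KO saline and WT G-CSF libraries were high, and WT saline libraries lay below both without overlap. It rose in WT by 0.69 ± 0.17 (adjusted p = 0.00821), its KO response was -0.42 ± 0.17 (adjusted p = 0.119), and the interaction was -1.11 ± 0.24 (adjusted p = 0.259). Without KO saline replicate 3 that was -1.32 (adjusted p = 0.0322). Rrp1b and Mybbp1a, nucleolar genes, had -0.46 ± 0.14 and -0.33 ± 0.13, and both rose in WT.

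Most members of 3 metabolic lists were also negative. Cholesterol synthesis and uptake had a median of -0.35 with 23 of 26 negative and 0 at an unadjusted p under 0.05, oxidative phosphorylation -0.11 with 70 of 76 negative, and the proteasome -0.11 with 26 of 31 negative. The cholesterol median was -0.22 without WT saline replicate 1, and without KO saline replicate 3 oxidative phosphorylation was at -0.02 and the proteasome at -0.04. Msmo1, of sterol synthesis, lay at 4.44 in WT saline replicate 1 and 5.19 in replicate 2, against 6.36 and 6.29 in replicates 3 and 4, and its interaction was -0.91 ± 0.44 (adjusted p = 0.7), or -0.53 without WT saline replicate 1. The glycolysis list had -0.10, and -0.05 without WT G-CSF replicate 2, with Aldoc, an aldolase gene, at -0.33 ± 0.13.

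Some targets of cytokine signalling rose in both genotypes. Of 25 STAT3 and STAT5 response genes 12 rose in KO (48.0%, against 5.58% of all genes) and 10 in WT (40.0%, against 5.63%), 9 of them in both. Their median interaction was -0.07, and -0.25 to 0.03 with 1 library left out. Csf3r, the receptor of G-CSF, rose by 1.09 ± 0.20 in KO and 1.09 ± 0.20 in WT (interaction 0.003 ± 0.285). Socs3, a feedback inhibitor of the receptor, lay at 5.71, 6.19, 6.70 and 5.94 in KO G-CSF, 2.12, 2.15 and 1.43 in KO saline, 6.39, 6.34 and 6.23 in WT G-CSF and 0.67, 1.25, 0.71 and 1.75 in WT saline libraries. After G-CSF the genotypes overlapped, and after saline KO replicate 3 lay within the WT range. The responses were 4.23 ± 0.24 and 5.22 ± 0.24, and the interaction -0.99 ± 0.34 (adjusted p = 0.542). Socs2, another inhibitor of cytokine receptors, lay at 6.79, 6.39, 6.38 and 6.17 in KO G-CSF, 6.20, 5.58 and 5.57 in KO saline, 5.51, 5.59 and 5.48 in WT G-CSF and 5.49, 5.37, 5.77 and 5.42 in WT saline libraries. It rose in KO by 0.65 ± 0.16 (adjusted p = 0.0103), its WT response was 0.02 ± 0.16, and the interaction was 0.64 ± 0.23 (adjusted p = 0.574).

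Stem and progenitor genes had medians near 0. The 54 HSC identity genes had 0.02. In KO 4 rose (7.41%, against 5.58% of all genes) and 12 fell (22.2%, against 4.31%), and in WT 4 rose (7.41%, against 5.63%) and 11 fell (20.4%, against 5.63%). The 17 multipotent and lymphoid-primed progenitor genes had 0.09. Of these 13 rose in KO (76.5%, against 5.58% of all genes) and 9 in WT (52.9%, against 5.63%). Of the gate genes, Ly6a, which encodes Sca-1, lay at 8.13, 7.98, 8.16 and 8.15 in KO G-CSF, 7.52, 7.33 and 7.83 in KO saline, 8.41, 8.31 and 8.50 in WT G-CSF and 7.50, 7.10, 7.23 and 7.16 in WT saline libraries. It rose in both, by 0.55 ± 0.12 in KO and 1.16 ± 0.12 in WT (adjusted p = 0.00536 and 7.64e-07), with an interaction of -0.62 ± 0.17 (adjusted p = 0.37). Cd48, whose protein the gate excludes, rose by 1.79 ± 0.31 in KO and 1.78 ± 0.31 in WT (interaction 0.01 ± 0.43). Gata2, an HSC transcription factor, lay at 6.32, 6.29, 7.16 and 7.09 in KO G-CSF, 7.64, 7.69 and 7.87 in KO saline, 7.23, 7.21 and 7.18 in WT G-CSF and 7.36, 7.58, 7.21 and 7.84 in WT saline libraries. KO G-CSF replicates 1 and 2 were again apart from replicates 3 and 4, and the interaction was -0.73 ± 0.26 (adjusted p = 0.582). The granulocyte progenitor list had a median of 0.66, which was -0.14 without WT saline replicate 3 and also without WT G-CSF replicate 1. Its mean in WT saline replicate 3 was 4.18 log2 CPM against 1.42, 1.46 and 1.87 in the other WT saline libraries. The 9 neutrophil markers had a median of 0.91, and 0.49 to 2.20 with 1 library left out. The other marker lists had medians of -0.73 for mast cells and basophils (6 of 7 negative), -0.69 for erythroid cells (6 of 7), -0.44 for T and NK cells (5 of 6), -0.28 for megakaryocytes and platelets (13 of 15), -0.21 for monocytes and macrophages (10 of 12), -0.04 for stroma and endothelium (4 of 7) and 1.93 for B cells, of whose 12 markers 2 were tested, with 0 members past the threshold. With 1 library left out they ran from -0.97 to -0.50 for mast cells, -0.90 to -0.34 for erythroid cells, -0.62 to -0.27 for T and NK cells, -0.29 to -0.14 for megakaryocytes, -0.82 to -0.09 for monocytes, -0.19 to 0.10 for stroma and 0.95 to 2.42 for B cells. The part of such cells in the interactions above was not tested. Among the remaining pathway lists, the medians were 0.16 for chromatin regulators, 0.03 for immediate early genes, 0.02 for lamins, 0.01 for interferon response genes, -0.05 for p53 targets and -0.11 for niche adhesion, and with 1 library left out they stayed between -0.17 and 0.33.

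Further genes of small p belong to no list. On the positive side, Mir99ahg, the host transcript of a microRNA cluster, lay at 4.79, 4.20, 4.54 and 4.47 in KO G-CSF, 4.73, 4.63 and 4.45 in KO saline, 3.94, 4.06 and 3.66 in WT G-CSF and 5.31, 5.16, 5.15 and 4.60 in WT saline libraries. It fell in WT by 1.17 ± 0.17 (adjusted p = 4.95e-05), its KO response was -0.10 ± 0.17, and the interaction was 1.07 ± 0.24 (adjusted p = 0.269). Gas2l3 and Dync2h1, genes of the cytoskeleton and of a ciliary motor, had a like form, with interactions of 0.63 ± 0.15 and 0.69 ± 0.18. Cep162, a centriole gene, and Arhgef39, an exchange factor gene, rose in KO by 0.63 ± 0.12 and 0.68 ± 0.16, with interactions of 0.77 ± 0.17 and 0.90 ± 0.22. Hacl1, a peroxisomal lyase gene, had a KO response of 0.36 ± 0.12 (adjusted p = 0.0484) and a WT response of -0.35 ± 0.12 (adjusted p = 0.0501).

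On the negative side, Nefh, a neurofilament gene, lay at 5.13, 4.97, 4.36 and 4.83 in KO G-CSF, 6.16, 6.31 and 5.47 in KO saline, 5.66, 5.66 and 4.95 in WT G-CSF and 5.31, 4.87, 5.05 and 5.06 in WT saline libraries. It fell in KO by 1.16 ± 0.23 (adjusted p = 0.0017), its WT response was 0.35 ± 0.23, and the interaction was -1.51 ± 0.32 (adjusted p = 0.259). Vldlr, a lipoprotein receptor gene, lay at 7.82, 8.08, 7.91 and 8.08 in KO G-CSF, 4.41, 4.20 and 3.73 in KO saline, 8.30, 8.11 and 8.16 in WT G-CSF and 3.52, 3.64, 3.57 and 3.57 in WT saline libraries. It rose strongly in both, by 3.86 ± 0.13 in KO and 4.61 ± 0.13 in WT, with KO above WT after saline and below it after G-CSF in every library. Its interaction was -0.76 ± 0.18 (adjusted p = 0.269), and without KO saline replicate 3 it was -0.95 (adjusted p = 0.0322). Il13ra1, an interleukin receptor subunit gene, had 97, 96, 121 and 125 reads in KO G-CSF, 25, 12 and 15 in KO saline, 266, 235 and 260 in WT G-CSF and 2, 13, 0 and 2 in WT saline libraries. At so few reads after saline in WT the fitted interaction of -4.01 ± 0.91 (adjusted p = 0.269) depends on the added pseudocount.

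Vcam1, an adhesion molecule gene of the niche, is also on the monocyte and macrophage marker list. Of those 12 markers 5 fell in KO (41.7%, against 4.31% of all genes) and 2 rose (16.7%, against 5.58%). In WT 0 fell and 1 rose (8.33%), against 5.63% of all genes each way. The part of such cells in the Vcam1 values was not tested. Vcam1 lay at 0.13, -0.32, 0.74 and -0.02 in KO G-CSF, 4.22, 2.66 and 2.80 in KO saline, 2.81, 1.56 and 2.74 in WT G-CSF and 4.28, 2.81, 3.14 and 3.56 in WT saline libraries. The KO G-CSF libraries were below all others, it fell in KO by 3.10 ± 0.46 (adjusted p = 7.16e-05), and its WT response was -1.08 ± 0.46 (adjusted p = 0.143). The interaction was -2.02 ± 0.65 (adjusted p = 0.509). In spleen the KO minus WT difference was 0.73 (adjusted p = 0.526). Ccr7, a chemokine receptor gene, had 38, 24, 45 and 14 reads in KO G-CSF and 0 reads in each KO saline library, against 4, 6 and 43 in WT G-CSF and 13, 10, 1 and 5 in WT saline libraries, and no fold change is given for it.

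The remaining named genes had wider errors or smaller sizes. Fosb, an immediate early transcription factor gene, lay at 3.08, 2.84, 0.15 and -0.26 in KO G-CSF, -1.81, -0.38 and -1.08 in KO saline, -0.57, 0.71 and 0.25 in WT G-CSF and 0.60, -0.96, 2.29 and 0.68 in WT saline libraries. KO G-CSF replicates 1 and 2 were the highest, and replicates 3 and 4 lay within the WT range. The interaction of Fosb was 3.06 ± 1.07 (adjusted p = 0.555). Syne1, a nuclear envelope gene, and Bcorl1, a corepressor gene, fell in WT by 1.22 ± 0.23 and 0.76 ± 0.14, with KO responses of -0.36 ± 0.23 and -0.15 ± 0.14 and interactions of 0.86 ± 0.32 and 0.62 ± 0.20. Oscp1 had an interaction of 1.12 ± 0.32 and was higher in KO than in WT after G-CSF (adjusted p = 0.0281). Emcn, an endothelial and HSC surface gene, had 0.41 ± 0.17. Among negative values, Nxpe3 had -1.08 ± 0.29, C77080 -1.16 ± 0.32 and the cytochrome c gene Cycs -0.94 ± 0.35. The apoptosis gene Bax had -0.39 ± 0.19, Stat5b -0.33 ± 0.17, the proteasome gene Psmd8 -0.28 ± 0.15, the cyclin gene Ccnd3 -0.24 ± 0.21 and the chaperone gene Calr -0.24 ± 0.12.

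**Figure D5:**
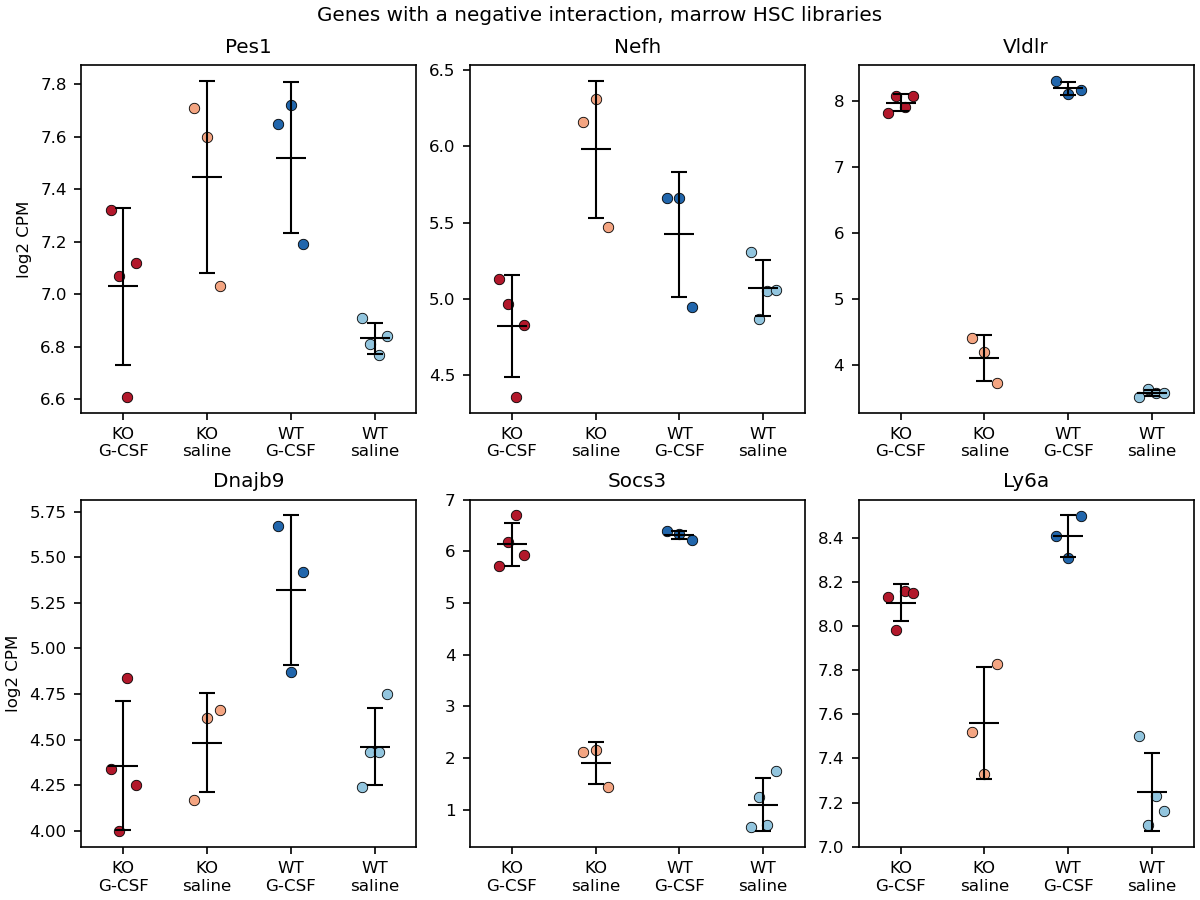
Log2 CPM of 6 genes with a negative interaction in each marrow library (points), with the group mean and SD. Pes1 and Dnajb9 are higher in WT G-CSF than in WT saline libraries without overlap, and Vldlr, Socs3 and Ly6a are higher after G-CSF in both genotypes.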

How the data were processed

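RNA was sequenced from HSCs sorted from KO and WT mice. The authors deposited log2 CPM per gene and library in 1 table, and the submitters' processing notes name limma, edgeR, Salmon 0.8.2, featureCounts 1.4.6-p5 of Subread, STAR 2.5.1a and bcl2fastq beside build mm10, without their roles. The deposited log2 values step as whole reads plus a pseudocount of 0.5, whole within 0.05 in 100% of values, so depth is known; counting error is the only error this covers. Of 13645 lines, 51 repeats with identical values were dropped, leaving 13594 genes, and 19 symbols written as dates were looked up by identifier. Genes above 1 CPM in at least 3 samples (13571) entered 1 limma fit (R 4.3.3, limma 3.58.1) of 6 group means over all 22 libraries, with a variance trend, 16 residual degrees of freedom and Benjamini-Hochberg adjustment over all genes at 0.05. Errors on differences are standard errors (SE) from that fit. The fit was tested on simulated data.

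Lists have no test; counts and medians are set beside those of all genes. The gene lists and the genes of interest were chosen with earlier results of these data known. Named genes are Cd53 and the gate genes, up to 8 genes of smallest p per direction of the interaction (at least 3 log2 CPM in a marrow group, no predicted genes), 3 or 1 per list, up to 5 of the largest shared rises and up to 5 of the largest shared falls, and up to 10 genes past the threshold in KO against WT after G-CSF. Some named genes are not reported here. Further members of the lists were named after their values were seen, for their role. Promoter windows of 9970 genes were matched by Entrez number (RefSeq, GRCm38.p6). Python 3.11.15, pandas 2.3.3, NumPy 2.4.6 and matplotlib 3.10.9 were used. The alternatives were other libraries, variance settings, weights, filters, pseudocounts and scalings, a replicate block, and each marrow library left out.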

Additional observations from a re-analysis of the deposited data

Results flagged for a closer look

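Single libraries stood apart within their group for 13 values, by the gap to the nearest of the other 3 libraries relative to the whole range. This was looked for in 184 groups of 4 libraries, where chance gives about 1 in 20, and groups of 3 were not examined. In KO G-CSF marrow these were Ly6a at 7.98 log2 CPM and Inhba at -4.02 in replicate 2, Cd48 at 3.71 in replicate 3 and Tmem215 at 5.16 in replicate 1. In WT saline marrow they were Emcn at 6.22 in replicate 1, Aldoc at 6.06 in replicate 2, Mybbp1a at 8.47 in replicate 3, and Tfdp2 at 5.95 and Arhgef39 at 5.67 in replicate 4. List means apart from the rest were those of immediate early genes at 3.89, granulocyte progenitor genes at 4.18 and neutrophil markers at 0.79, all in WT saline replicate 3, and of mast cell and basophil markers at -1.53 in WT saline replicate 2.

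For 3 named genes every library of one kind lay on the opposite side from those of the other. Hacl1 was higher after G-CSF in KO libraries and lower after it in WT libraries, each without overlap, with an interaction of 0.715 by limma (adjusted p = 0.269). Il13ra1 and Vldlr were lower in KO than in WT libraries after G-CSF and higher after saline, again without overlap, with interactions of -4.006 and -0.756 by limma (adjusted p = 0.269 for each). Over all genes, 7 had responses that separated in opposite directions in the genotypes, and 21 had genotypes that did so under the treatments.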

How the results depend on the processing

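No gene passed the interaction under any of the 11 alternatives that keep all marrow libraries (0 each). With 1 library left out the count ran from 0 to 7. It was 7 without KO saline replicate 2, all higher and including Kif14 and Cit, 3 without KO saline replicate 3 (Cd53, Pes1 and Vldlr, all lower), 1 without WT saline replicate 2 (Il13ra1) and 1 without WT G-CSF replicate 2 (Gjb5, chosen after its value was seen). Genes at an unadjusted p under 0.05 numbered 641 where the filter asked for an average of 3 log2 CPM or more, and 730 to 1635 with 1 library left out, the highest without KO G-CSF replicate 3. That filter gave a slope of 0.728 and an r of 0.723 for KO on WT responses.

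The G2/M median was 0.67 to 0.72 over the other alternatives and 0.54 to 0.81 with 1 library left out. G2/M members at an unadjusted p under 0.05 numbered 34 to 61 with 1 library left out, those that rose in KO 30 to 51 and those that rose in WT 0 to 1. The WT count was 0 in the 14 marrow libraries alone, with no variance trend, with sample weights, with the listed-gene total as scale and with the replicate block. Unfolded protein response genes with a negative interaction at an unadjusted p under 0.05 numbered 3 to 11 with 1 library left out. Those that rose in KO numbered 2 in the 14 marrow libraries alone, 1 with no variance trend, 1 with the listed-gene total as scale, and 1 to 6 with 1 library left out. The cause of these shifts was not tested.

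Taken over all marrow groups, the residuals of same-numbered libraries correlated at a median of 0.0159 over 19 pairs (1 above 0.1). Over 54 other pairs the median was -0.003 (5 above 0.1). The highest same-numbered pair was at 0.142. The highest other pair, WT saline replicate 4 with KO saline replicate 3, was at 0.168. Between KO saline and KO G-CSF libraries the same-numbered pairs were higher than the others. Replicates 1, 2 and 3 were at 0.074, 0.055 and 0.142, against -0.090 to 0.012 for the other pairs of these groups. Whether same-numbered KO libraries share a source was not tested. With the replicate number as a block, 0 genes passed and the G2/M median was 0.67.

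Of 1563 values of 63 named genes under the alternatives, 1538 kept their sign and 25 in 7 genes did not. Cd48 was at -0.089 with sample weights and -0.007 with voom. With 1 library left out the ranges were -0.077 to 0.239 for Kit, -0.295 to 0.268 for Cd48, -0.163 to 0.146 for Slamf1, -0.406 to 0.517 for Plk2, -0.293 to 0.999 for Cyp26b1, -0.316 to 0.538 for Runx1t1 and -1.658 to 0.528 for Sema3d. The B cell list median ran from 0.0 to 2.07 over the alternatives that keep all marrow libraries.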
